A study of Rattus norvegicus with 8 samples.

Results

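This report concerns 10 genes of the hypoxia-inducible factor (HIF) pathway in the rat Achilles tendon, namely the factors Hif1a and Epas1, the oxygen sensors Egln1 and Egln3, and 6 target genes outside glycolysis, Car9, Adm, Bnip3, Ankrd37, Ndrg1 and Ddit4. They were taken by gene symbol from a table of 15590 genes, in which each of the 10 had a single row. Polyadenylated RNA was sequenced from the right Achilles tendons of 8 wild-type male Sprague-Dawley rats, aged 8 to 10 weeks by the account in the methods. The 4 rats of the 0 h p.r. (post-run) group ran for 1 h on a treadmill at 20 m/min and a 10° incline, urged by airflow and mild electric stimulation, and were killed immediately. The 4 naïve controls (NC) kept to normal cage activity. In the running experiment of the study, control rats were killed together with a group taken 12 h after the run, but whether these included the 4 NC rats sequenced here is not given in the sources used here. If they did, running and the hour of sampling cannot be told apart.

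HIF is a pair of proteins, an oxygen-regulated alpha subunit (encoded by Hif1a or Epas1) and the stable partner ARNT. When oxygen is ample, prolyl hydroxylases of the Egln family mark the alpha subunit, the von Hippel-Lindau protein recognises the mark, and the subunit is destroyed. When oxygen is short the subunit persists, enters the nucleus and binds DNA at a short core written ACGTG or GCGTG. Egln3 is itself a well-known HIF target and so closes a feedback loop. Tendon is a matrix-rich tissue with few vessels. The libraries measure RNA, and the amount of HIF protein was not analysed here.

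The depth was 11350560 to 17897056 reads per library, recovered as whole numbers from the values. Levels are given in FPKM, fragments scaled to gene length and library size, so they can be set side by side between genes. Mitochondrially encoded transcripts of 13 protein genes made up 31.1% of NC replicate 2 by FPKM and 16.3% to 21.9% in the other 7 libraries. All 10 marker genes of tendon cells were present, with means of 224 FPKM in NC and 177 FPKM in 0 h p.r. for Tnmd, which encodes tenomodulin, and limma called none of the 10 (1 at an unadjusted p under 0.05, and none by voom). Markers of other tissues were present as well. Adipocyte markers summed to 3242 to 6543 FPKM in NC and 1111 to 2389 FPKM in 0 h p.r. All 10 had a log2 fold change under 0 and an unadjusted p under 0.05. Limma called 6 of them lower, where 0.894% of all tested genes were, and voom called 7. Cartilage markers summed to 1168 to 1648 FPKM in NC and 1705 to 4511 FPKM in 0 h p.r., and bone markers to 298 to 465 FPKM and 546 to 2146 FPKM, with none of the 5 tested genes of either list called by limma (4 of each at an unadjusted p under 0.05, and 0 and 1 called by voom). Of the bone markers, 1 had a limma adjusted p under 0.05 at a fold under 2. Skeletal muscle markers summed to 4768 to 6943 FPKM in NC but ranged from 929 FPKM (replicate 4) to 29508 FPKM (replicate 1) within 0 h p.r., and limma and voom called none of the 9 tested (2 at an unadjusted p under 0.05). No marker gene was at 0 in all libraries. In such bulk samples, fewer cells of a type and less RNA per cell cannot be told apart.

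Promoter sequences of 9 of the 10 genes were matched by symbol in RefSeq (build GRCr8), each from 250 bases before to 50 bases after the annotated start; Ndrg1 was not matched. The letters ACGTG and GCGTG were searched on both strands, and a place where ACGTG matches on both strands, in a shared palindrome, was counted once. At least 1 of these motifs was present in 6 of the 9 windows, against 61.2% of the 9702 windows of tested genes and 41.6% of all 33469 windows. ACGTG alone was in 6 of the 9 windows, against 25.1% and 19.3%. These letters were found in the windows of Hif1a, Egln1, Car9, Bnip3, Ankrd37 and Ddit4, and not in those of Epas1, Egln3 and Adm. A match is a description of the window and not a binding site. The 10 genes were chosen as genes of the HIF pathway, so their share with ACGTG is no independent result. Both motifs contain the base pair step CG, which occurred 1 time in the window of Egln3 and 64 times in that of Egln1. Egln3, which was called after running, had no match, and its window is not printed. Of the 9 windows, 4 are printed because they set genes that were called after running (Hif1a, Car9) beside genes with matches that were not (Ankrd37, Bnip3). They run 5′ to 3′ on the strand of the gene, with the matched letters in capitals.
Hif1a, chr6:98359648-98359947, plus strand: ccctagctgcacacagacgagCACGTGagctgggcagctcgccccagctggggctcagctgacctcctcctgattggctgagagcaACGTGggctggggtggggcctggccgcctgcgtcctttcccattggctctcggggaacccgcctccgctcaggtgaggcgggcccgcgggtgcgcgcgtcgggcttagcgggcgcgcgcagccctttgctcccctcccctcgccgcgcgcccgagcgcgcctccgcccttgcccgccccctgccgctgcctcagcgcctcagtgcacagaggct
Car9, chr5:62558774-62559073, plus strand: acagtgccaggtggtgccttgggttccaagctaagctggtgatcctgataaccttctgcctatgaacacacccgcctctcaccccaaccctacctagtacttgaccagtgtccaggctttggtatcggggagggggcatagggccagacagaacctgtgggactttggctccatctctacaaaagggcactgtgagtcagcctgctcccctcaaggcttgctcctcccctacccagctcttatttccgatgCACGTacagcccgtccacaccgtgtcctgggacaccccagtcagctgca
Ankrd37, chr16:53001257-53001556, plus strand: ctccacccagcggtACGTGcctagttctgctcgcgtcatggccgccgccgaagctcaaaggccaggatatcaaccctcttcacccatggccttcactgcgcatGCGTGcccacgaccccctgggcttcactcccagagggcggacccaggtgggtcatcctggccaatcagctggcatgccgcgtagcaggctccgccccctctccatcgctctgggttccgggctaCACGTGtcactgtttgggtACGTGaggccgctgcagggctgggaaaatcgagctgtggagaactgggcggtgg
Bnip3, chr1:203154913-203155212, minus strand: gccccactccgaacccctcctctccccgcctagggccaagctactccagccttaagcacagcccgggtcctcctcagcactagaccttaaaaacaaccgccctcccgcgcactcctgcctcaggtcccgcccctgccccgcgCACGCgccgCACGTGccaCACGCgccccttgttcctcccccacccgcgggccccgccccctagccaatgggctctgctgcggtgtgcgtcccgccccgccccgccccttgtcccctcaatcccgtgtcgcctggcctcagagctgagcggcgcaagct
Ankrd37 had the most places, 4 of them, the nearest beginning 4 bases before the start. Bnip3 had 3 places between 108 and 90 bases before the start. In Hif1a the 2 places began 229 and 164 bases before the start, and the single match of Car9 lay just after it.

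The comparison of 0 h p.r. with NC set the tendons of rats that had just run beside resting ones. Hif1a, Egln3 and Car9 rose, by about 2.2, 2.3 and 2.7-fold. Adm and Ankrd37 had higher means after running without passing the test, and Epas1, Egln1, Bnip3, Ndrg1 and Ddit4 did not pass either. The test was limma on log2(FPKM + 0.5), fitted to 13863 genes with at least 0.5 FPKM in 4 libraries, two-sided, with Benjamini-Hochberg adjustment over all of them. Calls needed a fold of 2 or more together with an adjusted p below 0.05, and fold changes on this scale understate the change of low genes. All 10 genes passed the filter. Of them 3 were called higher and 0 lower, where 1.80% of the tested genes were called higher and 0.894% lower (2.70% in all). At an unadjusted p under 0.05 there were 5, all with higher means after running. The share of all tested genes at that threshold is not given here. Counts at an unadjusted p, also those of the marker lists, are therefore not set against the series. Voom on the recovered reads called the same 3 genes as limma. At any fold 3 of the 10 had an adjusted p under 0.05, against 5.72% of the tested genes. The log2 fold change was above 0 for 8 of the 10, against 49.9% of the tested genes. Its median over the 10 genes was 0.48, and that of all tested genes was -0.0014. Nothing in the labels names separate cultures, batches or pooling, so the p-values measure the spread between these 8 libraries.

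**Figure D1:**
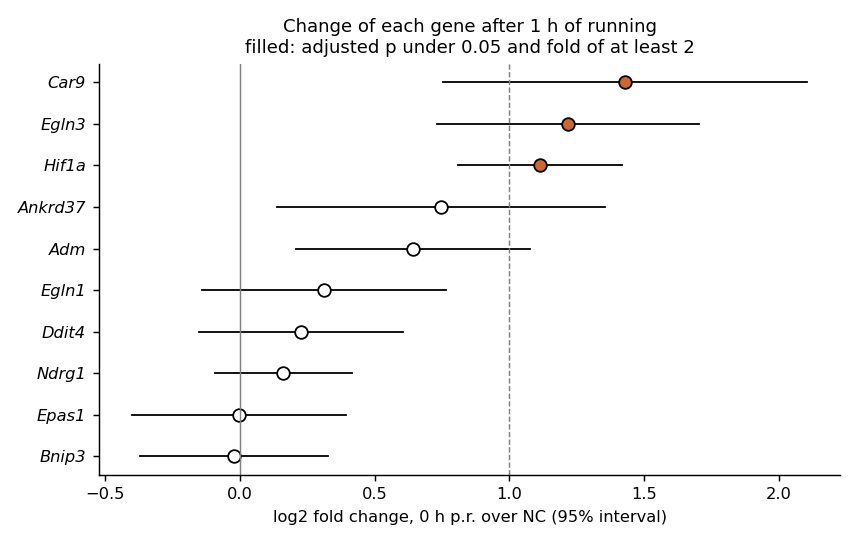
Log2 fold change of each gene, 0 h p.r. over NC, with its 95% interval from limma (4 libraries per group); the dashed line marks a fold of 2. Car9, Egln3 and Hif1a (filled) lie between 1.11 and 1.43, and the intervals of Epas1 and Bnip3 are centred near 0.

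Hif1a (ENSRNOG00000008292) encodes the alpha subunit of HIF-1. Its level was 32.6, 33.6, 34.2 and 39.7 FPKM in NC replicates 1 to 4, and 79.1, 78.2, 88.7 and 61.4 FPKM in 0 h p.r. replicates 1 to 4. All libraries after running were above all controls, and the controls lay close together, with the highest 1.22 times the lowest. The mean rose from 35.03 ± 3.20 to 76.8 ± 11.3 FPKM (SD, n = 4), a log2 fold change of 1.11 (SE 0.13, 95% interval 0.81 to 1.42, limma adjusted p 0.00343). Whichever library was left out, Hif1a was called, with adjusted p between 0.00165 and 0.0195. The RefSeq annotation has a long noncoding RNA gene (LOC120103553) that overlaps Hif1a. The alignment used the strand, but the strand setting of the counting is not given in the sources used here, so reads of the overlap may not be separable.

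Epas1 (ENSRNOG00000021318) encodes HIF-2 alpha, the subunit best known from endothelium. Its level was 148, 97.3, 127 and 156 FPKM in NC and 138, 116, 153 and 115 FPKM in 0 h p.r. The groups overlapped fully, and the lowest value of all was that of NC replicate 2. The mean was 132 ± 26.1 FPKM in NC and 131 ± 18.3 FPKM in 0 h p.r. (SD, n = 4), with a log2 fold change of -0.0017 (95% interval -0.40 to 0.40, limma adjusted p 0.996). The interval spans folds of 0.758 to 1.32, so a change of 2-fold lies outside it. Of the 9 tested endothelial markers limma called none (2 at an unadjusted p under 0.05, and none by voom), and their sum was 567 to 664 FPKM in NC and 540 to 657 FPKM in 0 h p.r. The endothelial marker Egfl7 was higher after running at a fold under 2 (log2 fold change 0.75, limma adjusted p 0.0270).

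The ratio of both alpha subunits within each library restates these values. Epas1 was at 4.55, 2.89, 3.70 and 3.92 times the FPKM of Hif1a in NC, and at 1.74, 1.49, 1.73 and 1.88 times in 0 h p.r. The alpha subunit with the higher RNA level was Epas1 in every library, and its lead was smaller in every library after running than in any control. The mean ratio fell from 3.77 ± 0.686 to 1.71 ± 0.161 (SD, n = 4), a log2 difference of -1.13. Its two-sided exact permutation p of 0.0286 is the smallest possible with these libraries, and adds no evidence beyond the separation of Hif1a itself.

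**Figure D2:**
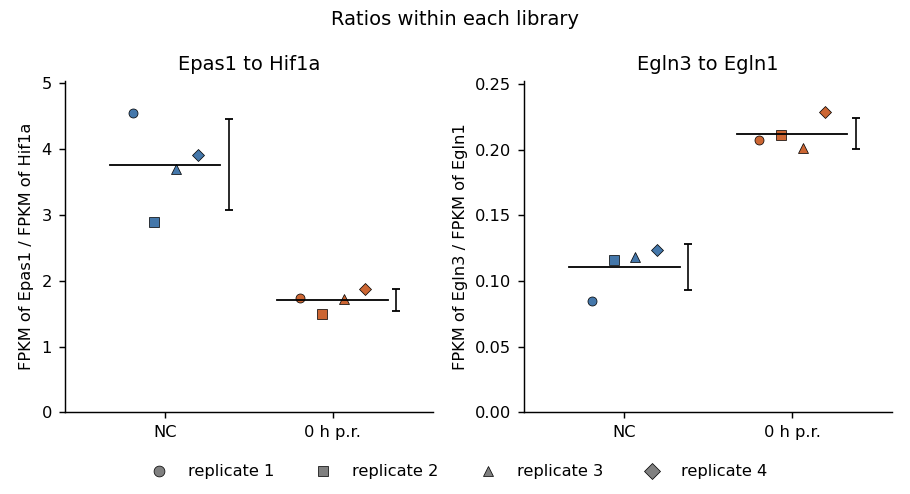
Ratios of FPKM within each library, Epas1 over Hif1a on the left and Egln3 over Egln1 on the right; symbols are libraries, horizontal bars are group means and error bars are SD. The groups do not overlap in either panel.

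The sensors differed in level. Egln1 (ENSRNOG00000019773) encodes PHD2, the main prolyl hydroxylase of HIF. Its level was 71.0, 96.9, 83.7 and 63.5 FPKM in NC and 131, 78.8, 106 and 79.4 FPKM in 0 h p.r. Replicates 1 and 3 of 0 h p.r. were above all controls, and replicates 2 and 4 lay among them. Its log2 fold change was 0.31 (SE 0.20, 95% interval -0.14 to 0.77, limma adjusted p 0.411). The FPKM of Egln1 rests on a short gene model, since Hif1a has 6.13 times its counted length. The libraries held 632 to 1166 reads of Egln1.

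Egln3 (ENSRNOG00000005053) encodes PHD3, a hydroxylase whose own transcription HIF induces. Its level was 6.03, 11.3, 9.89 and 7.82 FPKM in NC and 27.2, 16.6, 21.5 and 18.1 FPKM in 0 h p.r. The groups did not overlap. The mean rose from 8.75 ± 2.30 to 20.9 ± 4.69 FPKM (SD, n = 4), a log2 fold change of 1.22 (SE 0.22, 95% interval 0.73 to 1.70, limma adjusted p 0.0160). Without 0 h p.r. replicate 3 the adjusted p was 0.0536 and with any other library left out it was between 0.0181 and 0.0435. The highest value, that of 0 h p.r. replicate 1, was in the library with the most skeletal muscle marker RNA, as was the highest Egln1. Without that library its log2 fold change was 1.08 (limma adjusted p 0.0404). The next highest Egln3 after running, 21.5 FPKM in replicate 3, was in the library with the next highest muscle marker sum (13819 FPKM). In 0 h p.r. replicate 4, the library with the least muscle marker RNA, Egln3 was at 18.1 FPKM, and in replicate 2 it was at 16.6 FPKM. The part of muscle RNA in the Egln3 values was not tested.

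The ratio of Egln3 to Egln1 was 0.0850, 0.116, 0.118 and 0.123 in NC and 0.208, 0.211, 0.202 and 0.229 in 0 h p.r. The groups did not overlap. Within 0 h p.r. the ratio had a narrow range, while Egln3 itself varied 1.64-fold and Egln1 1.66-fold. Within NC, replicate 1 lay apart, below the other 3 controls. The mean rose from 0.111 ± 0.0174 to 0.212 ± 0.0116 (SD, n = 4), a log2 difference of 0.95. The two-sided exact permutation p was 0.0286, the smallest that the 70 ways to divide the libraries allow, and 0.0286 after adjustment over both ratios computed. The ratio was chosen with earlier results of these genes known, and since Egln3 alone already separated the groups, it is no independent evidence of a change. Egln1 remained the more abundant by FPKM in all 8 libraries. The size of that lead rests on the short gene model of Egln1, since Egln3 has 4.26 times the counted length of Egln1. In 0 h p.r. the libraries held 775 to 1019 reads of Egln3 and 913 to 1166 reads of Egln1.

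**Figure D3:**
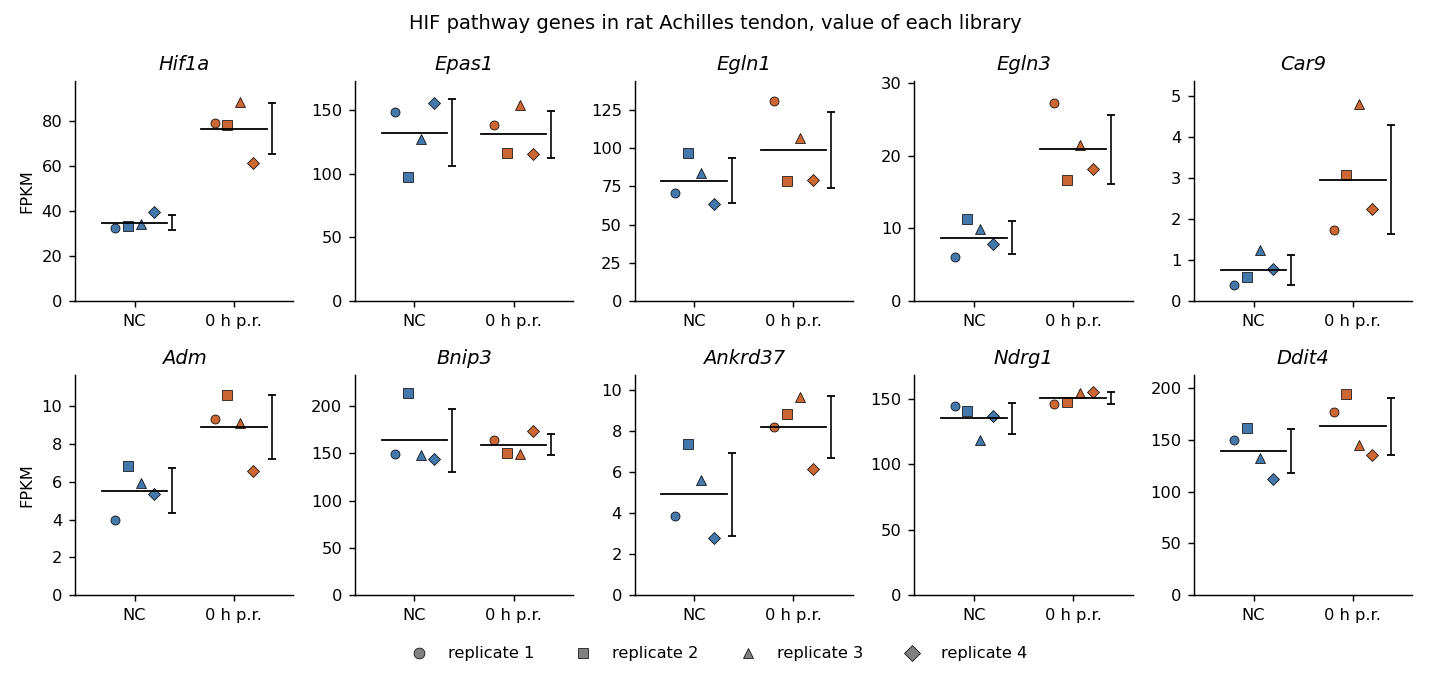
FPKM of the 10 genes in each library, on linear axes that start at 0; symbols mark the replicate number, horizontal bars are group means and error bars are SD (n = 4). Hif1a, Egln3, Car9 and Ndrg1 have groups that do not overlap, and NC replicate 2 (square) stands above the other controls for Bnip3.

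Among the targets, Car9 (ENSRNOG00000017073) had the largest fold. It encodes carbonic anhydrase IX, a membrane enzyme that helps cells keep their pH and is widely used as a marker of hypoxia. Its level was 0.408, 0.586, 1.25 and 0.781 FPKM in NC and 1.75, 3.07, 4.80 and 2.25 FPKM in 0 h p.r. These levels are low, and they rest on 15, 12, 38 and 24 reads in NC and on 48, 115, 127 and 84 reads in 0 h p.r. The groups did not overlap. The mean rose from 0.757 ± 0.364 to 2.97 ± 1.34 FPKM (SD, n = 4), and the log2 fold change was 1.43 (SE 0.30, a fold of 2.69 with a 95% interval of 1.69 to 4.30, limma adjusted p 0.0304). The call rested on single libraries. Its adjusted p was 0.0912 without NC replicate 1, 0.0629 without NC replicate 2, 0.0608 without NC replicate 4, 0.0991 without 0 h p.r. replicate 2. Leaving out 0 h p.r. replicate 3 gave 0.0693. In these 5 fits the log2 fold change was at most 1.45, and lowest without 0 h p.r. replicate 3. Only 15.5% of the tested genes had a lower mean FPKM than Car9.

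Adm (ENSRNOG00000027030) encodes adrenomedullin, a peptide that widens blood vessels. Its level was 3.97, 6.84, 5.94 and 5.38 FPKM in NC and 9.33, 10.6, 9.11 and 6.59 FPKM in 0 h p.r. After running, replicates 1 to 3 were above all controls and replicate 4 was below NC replicate 2. The log2 fold change was 0.64 (SE 0.19, a fold of 1.56 with a 95% interval of 1.16 to 2.11) and the limma adjusted p was 0.0861. Without 0 h p.r. replicate 4 the adjusted p was 0.0397, at a log2 fold change of 0.77.

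Ankrd37 (ENSRNOG00000031335), an ankyrin repeat gene known as a HIF-1 target, was close to Adm in level and pattern. It had 3.87, 7.41, 5.63 and 2.77 FPKM in NC and 8.19, 8.85, 9.66 and 6.16 FPKM in 0 h p.r. As with Adm, replicate 4 was the only library after running that lay below NC replicate 2. The log2 fold change was 0.75 (SE 0.27, 95% interval 0.14 to 1.35, limma adjusted p 0.139). Its interval reaches folds from 1.10 to 2.56. The libraries held 36 to 140 reads of Ankrd37, and the RefSeq annotation has the gene Lrp2bp overlapping it.

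The other 3 targets were already among the abundant RNAs of the resting tendon, at 164 ± 33.4 FPKM for Bnip3, 139 ± 21.4 FPKM for Ddit4 and 135 ± 11.6 FPKM for Ndrg1 in NC (SD, n = 4). The ranges of Bnip3, Ddit4, Ndrg1 and Epas1 in NC overlapped, so their order is not resolved. Bnip3 was above Ndrg1 in each of the 4 NC libraries, though their ranges met (143.9 to 213.8 and 118.2 to 144.4 FPKM). It was below Ddit4 in NC replicate 1 (149.1 and 149.99 FPKM) and below Epas1 in NC replicate 4 (143.9 and 155.5 FPKM). After these genes came Egln1 and then Hif1a by FPKM, and the values of Hif1a did not overlap those of Egln1. That order rests on the short gene model of Egln1, which had 632 to 844 reads in NC against 1328 to 2355 for Hif1a. Egln3 (6.03 to 11.3 FPKM), Adm (3.97 to 6.84 FPKM) and Ankrd37 (2.77 to 7.41 FPKM) overlapped with their neighbours, and Car9 was lowest, below the range of Ankrd37.

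Bnip3 (ENSRNOG00000017243) encodes a protein of the outer mitochondrial membrane that takes part in mitophagy. Its level was 149, 214, 149 and 144 FPKM in NC and 164, 151, 149 and 173 FPKM in 0 h p.r. Apart from NC replicate 2 the controls were almost level, and that library is also the one with the largest mitochondrial share, whose part in this value was not tested. The log2 fold change was -0.022 (95% interval -0.37 to 0.33, limma adjusted p 0.957). Without NC replicate 2 it was 0.11 (adjusted p 0.463).

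Ndrg1 (ENSRNOG00000007393), a stress-responsive gene, had 144, 141, 118 and 137 FPKM in NC and 146, 148, 154 and 155 FPKM in 0 h p.r. The groups did not overlap, but the gap between them was small, with the highest control at 144.4 and the lowest library after running at 145.9 FPKM. The log2 fold change was 0.16 (SE 0.11, 95% interval -0.093 to 0.42, limma adjusted p 0.453), and a change of 2-fold lies outside the interval. Counting Ndrg1, 4 of the 10 genes had 0 h p.r. libraries that were all above the controls, against 8.15% of the tested genes, and 0 of the 10 had them all below, against 7.47%.

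Ddit4 (ENSRNOG00000057078) encodes REDD1, an inhibitor of mTORC1 signalling that also answers to glucocorticoids and other stress. Its level was 149.99, 162, 133 and 112 FPKM in NC and 177, 195, 145 and 135 FPKM in 0 h p.r. The groups overlapped, with replicates 1 and 2 of 0 h p.r. above all controls. For Ddit4 the log2 fold change was 0.23 (SE 0.17, 95% interval -0.15 to 0.60, limma adjusted p 0.481). Of 10 glucocorticoid targets 5 had a log2 fold change above 0, 3 were called higher (Cebpd, Dusp1 and Errfi1) and 0 lower. Fkbp5 (-0.45), Tsc22d3 (-0.43), Zbtb16 (-0.40), Klf9 (-0.021) and Pdk4 (-0.73) were below 0 and were not called. Of 9 tested genes of the integrated stress response 7 were above 0, 2 were called higher (Atf3 and Ppp1r15a) and 0 lower. Asns (-0.62) and Trib3 (-0.17) were below 0 and were not called. The counts of called genes stand beside 1.80% of all tested genes called higher. The part of glucocorticoids or stress in the Ddit4 values was not tested.

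Single libraries moved the count of called genes. It was 3 with all 8 libraries, as it was when NC replicate 3 or replicate 1 or 4 of 0 h p.r. was left out. Leaving out 0 h p.r. replicate 3 gave 1 (Hif1a), in a fit where the calls over the whole table fell from 374 to 195. Leaving out replicate 1, 2 or 4 of NC, or replicate 2 of 0 h p.r., gave 2 (Hif1a and Egln3). The part of the adipocyte, cartilage, bone and muscle markers in these changes was not tested, nor was that of the clock. Of the clock genes, 1 of 5 with the phase of Arntl and 2 of 9 with the phase of Dbp were called higher by limma (1 in each list by voom), where 1.80% of all tested genes were. The former summed to 44.3 to 60.9 FPKM in NC and 70.6 to 110.4 FPKM in 0 h p.r., and the latter to 69.1 to 150.4 and 86.7 to 149.9 FPKM.

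**Figure D4:**
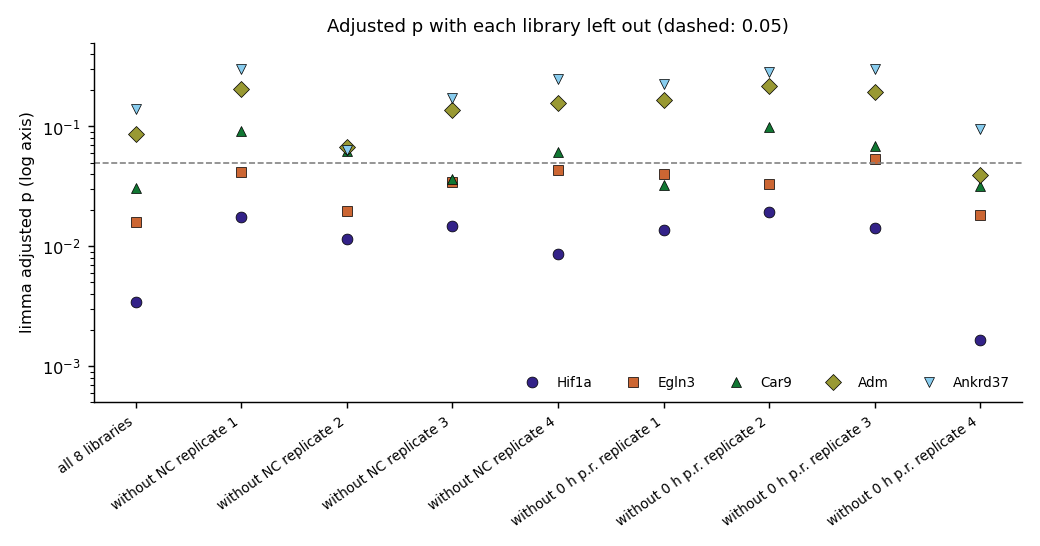
Limma adjusted p (log axis) of Hif1a, Egln3, Car9, Adm and Ankrd37 with all 8 libraries and with each one left out; the dashed line is 0.05. Hif1a stays under the line throughout, Egln3 crosses it once and Car9 crosses it 5 times.

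The rest of the pathway was described by lists drawn up for this comparison. Of 17 further regulators, 16 had a row and 14 were tested. Limma called 1 of the 14, where it called 2.70% of all tested genes. The called regulator was Siah2, which rose. It encodes a ubiquitin ligase that targets Egln proteins for destruction. Siah2 had 4.32, 3.33, 6.24 and 6.19 FPKM in NC and 12.6, 12.4, 10.7 and 13.7 FPKM in 0 h p.r., which did not overlap. Its log2 fold change was 1.25 (SE 0.20, limma adjusted p 0.00950), and it was called whichever library was left out (adjusted p up to 0.0379). The median of the 14 genes was 0.12. Arnt, the partner of the alpha subunits (log2 fold change 0.23), the von Hippel-Lindau gene Vhl (0.063), the further prolyl hydroxylase Egln2 (0.16) and the asparagine hydroxylase Hif1an (0.41) did not pass, with limma adjusted p of 0.467, 0.798, 0.459 and 0.506. These genes were chosen for their place in the pathway after their values were seen.

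Hif3a, which encodes another alpha subunit, was under the filter. It had 1.47, 0.538, 0.495 and 1.40 FPKM in NC and 0, 0.480, 0.113 and 0.214 FPKM in 0 h p.r., resting on 54, 11, 15 and 43 reads and on 0, 18, 3 and 8 reads. All libraries after running were below all controls, by a narrow margin where NC replicate 3 meets 0 h p.r. replicate 2. In the limma fit without a filter its log2 fold change was -1.04 with an adjusted p of 0.0790. Hif3a was named after its values were seen.

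Of 31 further HIF targets outside glycolysis, 30 had a row and were tested. Called higher were 4 of the 30 (Bhlhe40, Hmox1, Jmjd6 and Higd1a), 0 were called lower, and the median log2 fold change was 0.25. Over all tested genes, 1.80% were called higher and 0.894% lower. Bhlhe40, a transcriptional repressor that also acts in the clock, was at 24.9 ± 7.49 FPKM in NC and 116 ± 12.6 FPKM in 0 h p.r. (SD, n = 4). Its log2 fold change was 2.25 (limma adjusted p 0.000947). Hmox1, which encodes the haem-degrading enzyme heme oxygenase 1, had 82.8, 123, 100.3 and 25.6 FPKM in 0 h p.r. against 11.5 to 18.5 FPKM in NC (log2 fold change 2.33, adjusted p 0.0192). Its replicate 4 was the lowest after running, as for Hif1a and Adm. Jmjd6, which encodes an oxygen-dependent hydroxylase, rose by 1.23 on the log2 scale (limma adjusted p 0.00394). Higd1a, which encodes a small mitochondrial protein, rose by 1.03 (adjusted p 0.00649). All 4 genes had groups that did not overlap, but they were named because they were called. Among all tested genes, 8.15% had 0 h p.r. libraries that were all above the controls.

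Of these 4, Bhlhe40 and Jmjd6 were called whichever library was left out. Hmox1 was not called without NC replicate 1 (limma adjusted p 0.0622), NC replicate 3 (0.0545) or 0 h p.r. replicates 1, 2 and 3 (0.0537, 0.0608 and 0.0624). Higd1a was under a fold of 2 when NC replicate 1 or 0 h p.r. replicate 2 or 3 was left out (log2 fold changes of 0.98, 0.94 and 0.99), with adjusted p up to 0.0278, and likewise after quantile normalization (0.96). The count of called targets in this list was 2 if NC replicate 1 or replicate 2 or 3 of 0 h p.r. was left out. It was 3 if NC replicate 3 or replicate 1 of 0 h p.r. was. Rora, a nuclear receptor gene named after its values were seen, had an adjusted p of 0.0328 at a log2 fold change of 0.76.

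Of the glycolytic targets, 17 were tested, 3 were called higher (Slc2a1, Slc16a3 and Hk2) and the median log2 fold change was 0.72. Among all tested genes 1.80% were called higher. The glucose transporter gene Slc2a1 rose by 1.73 (limma adjusted p 0.00227), the lactate transporter gene Slc16a3 by 2.07 (0.0132) and the hexokinase gene Hk2 by 1.69 (0.0441). With a library left out Hk2 was called in 1 case, without 0 h p.r. replicate 4 (0.00771), and its adjusted p was 0.0661 to 0.122 in the other 7. The glycolytic list summed to 1779 to 2908 FPKM in NC, and to 7898, 2962, 4962 and 2197 FPKM in 0 h p.r. replicates 1 to 4. Skeletal muscle markers had the same order in those libraries, with 29508, 5140, 13819 and 929 FPKM, and their part in the glycolytic values was not tested.

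**Figure D5:**
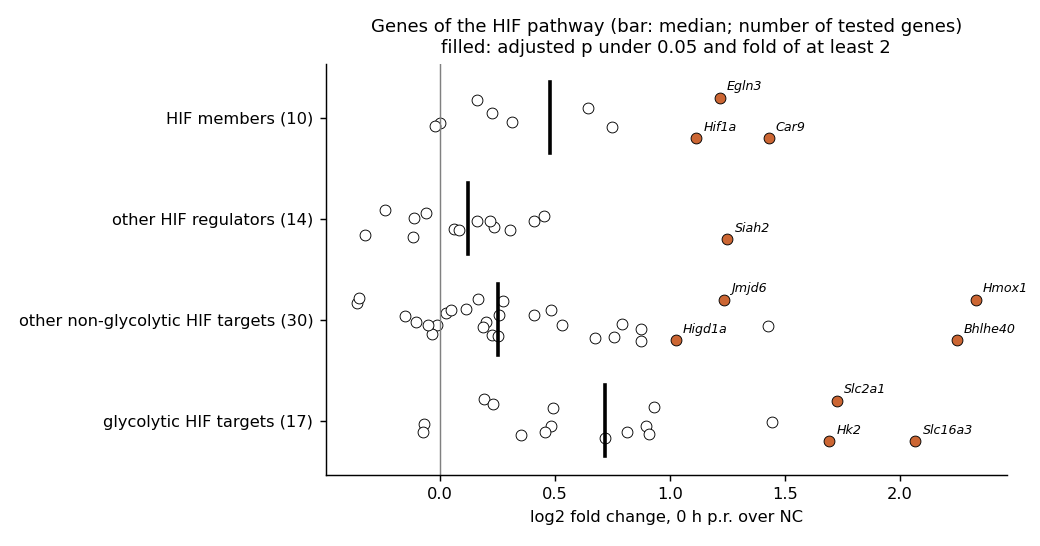
Log2 fold change of each tested gene of the 4 lists, 0 h p.r. over NC; vertical bars are list medians (0.48, 0.12, 0.25 and 0.72 from top to bottom) and filled points passed both thresholds. All filled points lie to the right of 1, and 2 of the open points do too.

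For the 3 genes that were called, the tested genes with the most similar pattern were found by Pearson's r of the log2 values over the 8 libraries, leaving out provisional and clone-based names. These are descriptions over libraries that share the same 2 groups. Closest to Hif1a were Rgs16 (r = 0.994), Rnd1 (0.993) and Maff (0.993), all of which were called higher. Closest to Egln3 were Slc16a3 (0.979), which was called higher, and Tspyl1 (0.972) and Mctp1 (0.962), which were not called. Closest to Car9 were Gcnt2 (0.976), Glis1 (0.974) and Dhx15 (0.973), of which only Glis1 was called, as higher. No gene was shared between the 3 sets.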

How the data were processed

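Polyadenylated RNA went into stranded libraries. The authors mapped the reads with HISAT2 2.1.0 to Rnor_6.0 and counted them with featureCounts 1.6.3, as stated in the methods and the submitters' processing notes. The deposited table holds FPKM values per gene and library. The authors' own comparison with DESeq2 1.30.1, deposited as log2 fold changes and as p-values, was not used.

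Whole reads were recovered from the steps between the FPKM values of a gene, within 0.002 reads or the rounding of the file, for all 15590 genes (100.0%). They served as depth (11350560 to 17897056 reads per library, covering counting error only) and in one alternative. Genes with at least 0.5 FPKM in at least 4 of 8 libraries (13863, leaving out 1727) were compared on log2(FPKM + 0.5) with limma 3.58.1 in R 4.3.3 (lmFit, eBayes with a trend, no covariate, Benjamini-Hochberg over all tested genes). Exact permutation tests and tables were made in Python 3.11.15 with numpy 2.4.6. The fit and the recovery were tested on simulated data. No 2 libraries of a group were near copies (lowest chi-square per gene of the reads 29.7 over 12 pairs).

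The 10 genes and the lists were chosen with earlier results of these data known. A single gene was taken out of the list of other targets outside glycolysis for a reason unrelated to its values, after these had been seen, and is not reported here. The counts and the median of that list are without it. The rule named all 10 genes, the called genes of the other pathway lists, and the 3 most similar genes of each called member. Arnt, Vhl, Egln2, Hif1an, Hif3a, Rora, the markers Tnmd and Egfl7, and the glucocorticoid and stress genes given by name were named outside it. Egfl7 and the glucocorticoid and stress genes were named after their values were seen. Of the other marker lists, neutrophil (1 higher and 1 lower of 2 tested), mural, macrophage, erythroid and Schwann cell markers (none called by limma or voom of 7, 8, 3 and 6 tested, with 2, 1, 0 and 2 at an unadjusted p under 0.05) entered no comparison. Of the mural markers, 1 had a limma adjusted p under 0.05 at a fold under 2. As alternatives, each library was left out in turn. The filter was dropped or set to a mean FPKM of 2, the pseudocount was 0.1 or 1, and scaling was by quantiles or median ratios. Further fits had array weights, the replicate block, voom on the recovered reads, calls by adjusted p without a fold, only protein-coding genes, or a null of 1.5-fold.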

Additional observations from a re-analysis of the deposited data

Results flagged for a closer look

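Of 24 groups of 4 values examined (the 10 genes and 2 ratios in each group), 2 held a library far from the other 3 by Dixon's criterion, and chance gives about 1 in 20. Bnip3 was at 214 FPKM in NC replicate 2 and at 144 to 149 FPKM in the other controls. The log2 ratio of Egln3 to Egln1 was -3.56 in NC replicate 1 and -3.11 to -3.02 in the other controls.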

How the results depend on the processing

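Hif1a was called under all alternatives besides the test against a fold of 1.5, which called none of the 10 genes (3 at an unadjusted p under 0.05) and 60 in all. A mean FPKM of at least 2 left Car9 untested. The adjusted p alone gave 793 genes over the table. The test against a fold of 1.5 also left 0 of the regulators (1 at an unadjusted p under 0.05), 1 of the other targets and 1 of the glycolytic targets. Leaving out single libraries gave 191 to 504 genes over the table, 1 to 3 of the 10, 2 to 4 of the other targets and 2 to 3 of the glycolytic targets. With array weights Adm (limma adjusted p 0.0160) and Ankrd37 (0.0250) had an adjusted p under 0.05 at a fold under 2. The sign of 2 genes near 0 was not fixed. Epas1 was at 0.00345 with median-ratio scaling, 0.025 with voom, and -0.14 to 0.085 with a library left out. Bnip3 was at 0.054 with array weights and -0.077 to 0.11 with a library left out. Same-numbered libraries did not deviate together (r of -0.14 to 0.072 across genes), and 0 of 4 controls correlated best with their own number. The replicate block, which rests on numbers alone, gave 212 genes over the table, 2 of the 10 (without Egln3, adjusted p 0.0746), 1 glycolytic target, 5 of the other targets (4 without the block), and paired log2 differences of -1.13 for Epas1 to Hif1a and 0.95 for Egln3 to Egln1 at p = 0.125 for each, the smallest that 4 pairs allow in an exact sign-flip test. The cause of these shifts was not tested. Depth limits low genes, since Car9 had 12 reads and Hif3a 0 reads in their lowest libraries.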
